A study of Mus musculus with 4 samples.

Results

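Toll-like receptors recognise molecules of microbes and, with a small set of partners, start inflammatory signalling in monocytes. The 9 genes described here, of the 27998 genes listed for both libraries, were 5 receptors (Tlr2, Tlr4, Tlr7, Tlr9 and Tlr13), 2 proteins that deliver bacterial lipopolysaccharide to Tlr4 (Cd14 and Ly96), the adaptor Myd88 and the inflammasome sensor Nlrp3. They were chosen by symbol from knowledge of the pathway, with earlier results of these data known, and all 9 symbols were found in both libraries. The cells were classical monocytes, sorted from bone marrow as Ly6G- CD11b+ CD115+ cells with high Ly6C, of wild-type C57BL/6 mice in 4 groups of 5. Ages were 14 weeks (young) and 27 months (old) for the males, against 15 weeks and 26.5 months for the females. Each mouse carried its own hashtag antibody, and the 10 mice of a sex were pooled before sorting, so that each sex was 1 library. Sex therefore cannot be told apart from library, and levels are compared between ages only, in each sex and as the contrast of both age effects.

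Toll-like receptors work in pairs of membrane proteins. Tlr2 recognises bacterial lipoproteins at the cell surface. Tlr4 recognises lipopolysaccharide there as a complex with the small secreted protein Ly96, also known as MD-2, after Cd14 has handed the lipid over. Tlr7, Tlr9 and Tlr13 reside in endosomes and recognise single-stranded RNA, unmethylated CpG DNA and bacterial ribosomal RNA, respectively. All of these receptors signal through Myd88, which recruits the Irak kinases and leads to NF-κB activation, whereas Tlr4 also signals through Ticam1. Nlrp3 sits downstream, where it assembles an inflammasome with Pycard and caspase-1 that matures interleukin-1β.

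Transcripts were counted as unique molecular identifiers (UMIs), each standing for 1 captured molecule. They were summed per mouse and are given as counts-per-million values (CPM), relative to all UMIs of that mouse, as mean ± SD over the 5 mice of a group. There were 6641 female and 1227 male cells, 259 to 1592 per female mouse and 49 to 206 per male mouse, and total counts of 2827638 to 18186954 UMIs per female and 330586 to 1108320 per male. No cell barcode was shared by the libraries (0 of all barcodes). Cells of old mice held more UMIs, with medians per mouse of 9699.5 to 13033 in old and 7978 to 8990 in young females and of 4489.5 to 8844 in old and 3805.5 to 4455.5 in young males. The summed level of immediate early genes was lower in old mice of both sexes without overlap (log2 CPM of 10.39 to 10.72 against 10.80 to 10.96 in females, and 10.66 to 10.98 against 11 to 11.33 in males). This list held genes that respond to handling, such as Fos and Jun, and also Nfkbia, Ier3 and Zfp36, so it is not a measure of handling alone. Classical monocyte markers (Ly6c2, Csf1r, Ccr2 and Itgam, without Cd14) summed to a log2 CPM of at least 11.72 in every mouse, and B cell markers to at most 5.21. Basophil markers were at most 1.73 in females but reached 8.90 in young male 2 and 9.15 in old male 3. In females the monocyte markers were higher in old (11.88 to 12) than in young mice (11.79 to 11.82) without overlap. Neutrophil markers ranged from 6.5 to 12.11 in males and 6.12 to 10.28 in females, with overlap of the ages. In old male 4 (12.11) and young male 2 (11.96) they lay above the monocyte markers of the same mouse (11.72 and 11.77). In males all 1227 barcodes were given to the mouse of their leading hashtag, 401 of which a hashtag caller (HTODemux) had marked as doublets although the leading hashtag held at least 80% of hashtag counts in 399 of these. The part of these differences in the results below was not tested.

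Of the 9 genes, only Myd88 passed the adjusted threshold for age over all cells of a mouse, and it was higher in old females. Tests were run with the edgeR quasi-likelihood test on the counts per mouse, two-sided, with Benjamini-Hochberg adjustment at 0.05 over all genes with enough counts. In females 8 of the 9 genes could be tested (Tlr9 had too few UMIs), and Myd88 was the only one called, beside 3.42% of the 10074 genes tested (2.03% higher and 1.4% lower in old females). In males 5 could be tested, and none was called (0 of 5), beside 0% of 5656 genes. At an unadjusted p below 0.05, edgeR listed 4 of the 8 in females, beside 16.5% of all genes, and 1 of the 5 in males, beside 10.9%. At an adjusted p below 0.05, DESeq2 called 22 male genes, of which 0 were among the 9. The median log2 fold change of the tested genes, old minus young, was 0.10 in females and -0.03 in males, against -0.00123 and 0.00787 over all genes tested.

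**Figure D1:**
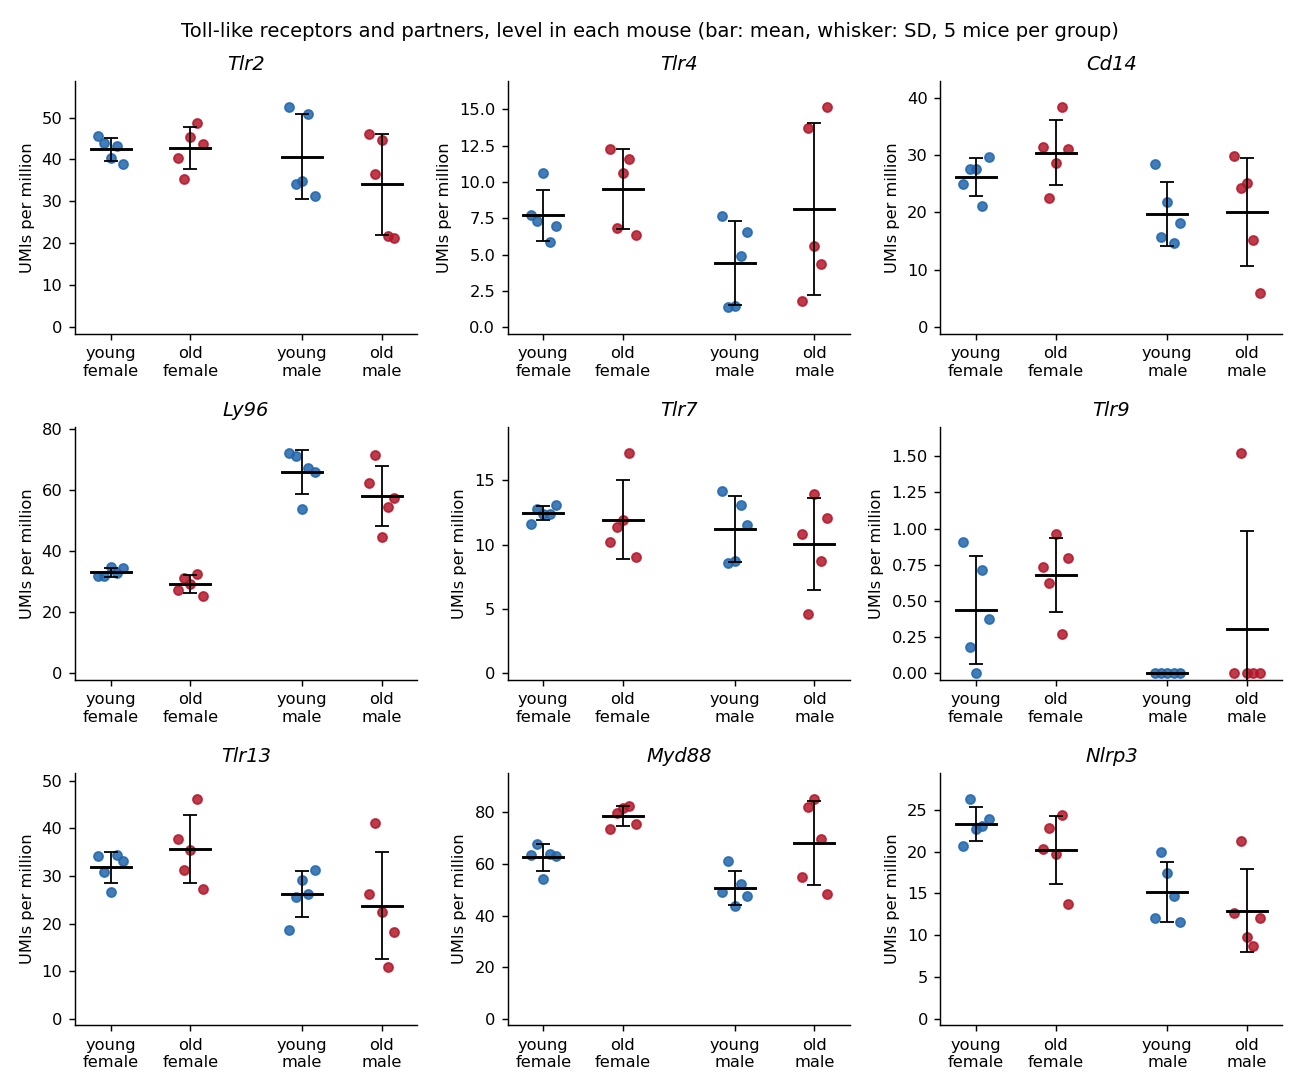
Level of each of the 9 genes in every mouse, in CPM (vertical axis), for young (blue) and old (red) mice of each sex. Points are mice, bars are means and whiskers are SDs over 5 mice. The 5 old females lie above the 5 young females for Myd88 (73.5 to 82.5 against 54.1 to 67.9), and the ages overlap in every other panel.

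Of the surface receptors, Tlr2 (GRCm38, chr3:83836272-83841767, minus strand) did not differ detectably with age. Old females had 40.4, 35.4, 45.5, 48.7 and 43.7 CPM (mice 1 to 5) and young females 45.7, 44.0, 40.3, 43.2 and 38.9 CPM. The young values lay within the range of the old ones. The log2 fold change was 0.03 with a standard error of 0.08 and a 95% interval of -0.13 to 0.20 (edgeR, adjusted p = 0.899). In males Tlr2 was at 34.0 ± 12 CPM in old and 40.7 ± 10.0 in young mice, 2 of the old males lying below all young ones, with a log2 fold change of -0.16 and a wider interval of -0.63 to 0.31.

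Tlr4 (chr4:66827584-66930284, plus strand), the lipopolysaccharide receptor, was measured from few molecules, 672 UMIs in all females. Old females had 12.2, 6.84, 10.6, 11.6 and 6.36 CPM and young females 7.69, 7.30, 10.6, 5.88 and 6.99 CPM. Of the old females, 3 were above all 5 young ones and 2 were not. The log2 fold change of 0.46 had a standard error of 0.19 and did not pass the threshold (edgeR, adjusted p = 0.226). In males, with 38 UMIs in all, Tlr4 was not tested, and it was at 8.11 ± 5.93 CPM in old and 4.4 ± 2.88 CPM in young mice, with old males 2 and 5 highest at 13.7 and 15.1 CPM.

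Cd14 (chromosome 18), the co-receptor that hands lipopolysaccharide on, was at 31.4, 22.6, 28.7, 38.3 and 31.0 CPM in old and 25, 27.6, 27.6, 21.1 and 29.7 CPM in young females. Of the old females, 3 lay above all young ones, and old female 2 lay below all but 1 of the young ones. Its log2 fold change was 0.28 ± 0.13 (SE; edgeR, adjusted p = 0.27). In males the means were 20.1 ± 9.46 CPM in old and 19.7 ± 5.56 CPM in young mice (log2 fold change 0.16, 95% interval -0.42 to 0.75).

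Ly96 (chr1:16688051-16709611, plus strand), which binds the lipid within the Tlr4 complex, had the opposite sign in both sexes. Old females had 27.2, 31.3, 29.2, 32.5 and 25.1 CPM and young females 31.7, 31.7, 34.7, 32.7 and 34.3 CPM. In 4 of the 5 old females the level was below that of all young females, and old female 4 lay among them. The log2 fold change of -0.16 ± 0.07 (SE) missed the adjusted threshold (edgeR, adjusted p = 0.24). In males it was -0.18 ± 0.15 (SE), from 58.1 ± 9.87 CPM in old and 66.0 ± 7.27 CPM in young mice (edgeR, adjusted p = 0.693).

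Of the endosomal receptors, Tlr13 (chrX:106143204-106160493, plus strand) was at 37.8, 31.3, 35.4, 46.1 and 27.3 CPM in old females and 34.2, 30.8, 26.5, 34.3 and 33.2 CPM in young females. The ages overlapped, with old female 4 the highest, and the log2 fold change was 0.16 ± 0.11 (SE; edgeR, adjusted p = 0.525). Old males, at 23.7 ± 11.2 CPM, spread more than young males, at 26.2 ± 4.82 CPM, and the log2 fold change was -0.03 with an interval of -0.59 to 0.52.

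Tlr7 (chrX:167304929-167330558, minus strand) had means of 11.9 ± 3.09 CPM in old and 12.4 ± 0.559 CPM in young females. Old females had 10.2, 11.4, 11.9, 17.1 and 9.06 CPM, a range that enclosed the 11.6 to 13.1 CPM of all young females. The log2 fold change was -0.01 with an interval of -0.31 to 0.30 (edgeR, adjusted p = 0.996). In males Tlr7 had 73 UMIs in all and was not tested (10.0 ± 3.61 CPM in old, 11.2 ± 2.54 in young).

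Tlr9 (chr9:106222598-106226883, plus strand) was barely detected. It had 49 UMIs in 6641 female cells, 26 in old and 23 in young mice, and 1 UMI in 1227 male cells. In young males it had 0 UMIs in 5 of 5 mice, and a count of 0 allows up to 4.94 CPM (3 counts) in young male 5, the least deeply sampled of them. No age effect could be tested in either sex.

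Nlrp3 (chr11:59541568-59566956, plus strand) was at 20.3, 22.8, 19.7, 24.4 and 13.7 CPM in old and 20.7, 26.3, 22.6, 23.1 and 23.8 CPM in young females. The lowest value was that of old female 5, and the ages overlapped. Its log2 fold change was -0.19 ± 0.12 (SE; edgeR, adjusted p = 0.462). Males, with 96 UMIs, had 12.9 ± 4.96 CPM in old and 15.1 ± 3.58 CPM in young mice and were not tested.

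Myd88 (ENSMUSG00000032508), the adaptor shared by these receptors, lies on the minus strand of chromosome 9 in GRCm38, chr9:119335934-119341411, in up to 6 exons. Old females had 73.5, 79.8, 81.9, 82.5 and 75.5 CPM and young females 63.5, 67.9, 54.1, 64.0 and 63.3 CPM. All 5 old females lay above all 5 young females. The ages did not overlap, in either direction, for 5.74% of the genes tested in females. The means were 78.6 ± 3.98 and 62.5 ± 5.08 CPM, a 1.26-fold difference (log2 fold change 0.33, standard error 0.06, 95% interval 0.21 to 0.45). It passed the threshold (edgeR, adjusted p = 0.00389) and was at rank 68 by p among the genes tested. Markers of interferon-stimulated cells ranged from 7.94 to 8.64 (log2 CPM) in old and 7.67 to 8.36 in young females, and their part in this result was not tested.

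In males Myd88 was at 55.0, 82.1, 85.2, 69.7 and 48.4 CPM in old and 49.1, 61.2, 43.7, 52.4 and 47.7 CPM in young mice. Old males 2, 3 and 4 lay above all young males, and old males 1 and 5 lay within their range. The ages overlapped for each of the 5 genes tested in males, beside 2.12% of male genes whose ages did not overlap. The log2 fold change of 0.43 was at least as large as in females, but its standard error of 0.17 was larger too, and it did not pass the adjusted threshold (edgeR, adjusted p = 0.359). The female minus the male age effect was -0.10 (log2, interval -0.43 to 0.23; edgeR interaction, adjusted p = 0.97). None of the 8 genes tested for this interaction was called (0 of 8; lowest adjusted p 0.951), beside 0.0225% of 8893 genes. Of these, Tlr4, Tlr7 and Nlrp3 had too few UMIs to be tested in males alone (38, 73 and 96). Their interaction therefore says little, with an interval of -1.51 to 1.24 for Tlr4.

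**Figure D2:**
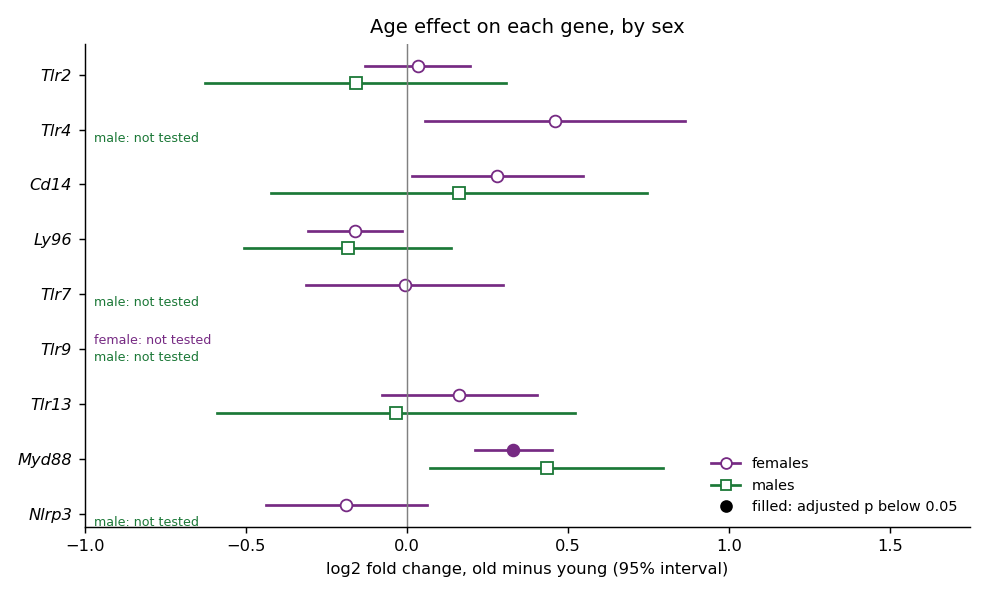
Log2 fold change, old minus young, of each gene with its 95% interval (horizontal axis), in females (circles) and males (squares). The filled symbol is the 1 gene past the adjusted threshold, Myd88 in females at 0.33, and the intervals of males are wider than those of females for each of the 5 genes tested in both.

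Reads of Myd88 can be hard to tell from those of its neighbours, since the annotation places Slc22a14 on the same strand and Acaa1a on the opposite strand over it, and whether counting used the strand is not given in the sources used here. Slc22a14 had 0 UMIs in both sexes. Acaa1a, a peroxisomal enzyme of fatty acid breakdown, was at 99.0 CPM in old and 89.8 CPM in young females, with a log2 fold change of 0.15 that did not pass the threshold (edgeR, adjusted p = 0.197). No annotated gene overlaps any of the other 8.

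The bases before the RefSeq start site of Myd88 are shown because Myd88 was the gene called by age in females. Capitals mark the match to a pair of motifs searched on both strands. The core of the interferon-stimulated response element, GAAA and GAAA with any 2 bases between, was found 40 bases before the start site. The STAT motif, TTC and GAA with any 3 bases between, was found 46 bases before it, and the matches overlap. The window lies on the minus strand of chr9:119340019-119340268 in GRCm38.p6 (RefSeq), the 250 bases before that start. It lies inside the gene span given above, which comes from the GENCODE annotation and reaches a start further upstream.
Myd88 promoter: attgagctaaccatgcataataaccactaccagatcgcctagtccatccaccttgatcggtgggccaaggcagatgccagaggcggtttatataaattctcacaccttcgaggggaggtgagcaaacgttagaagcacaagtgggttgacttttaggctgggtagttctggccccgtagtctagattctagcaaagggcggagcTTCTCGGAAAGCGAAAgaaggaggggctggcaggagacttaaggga
Of all 32851 promoters in the same table, 2.98% hold the first motif and 7.02% the second in their 250 bases. A narrow form of the NF-κB motif (GGGA and TTCC with any 2 bases between, 1.21% of promoters) and the PU.1 motif AGGAAGT (7.69%) had no match in the Myd88 window. Tlr2, Tlr9, Tlr13 and both Nlrp3 windows held no match to the 4 motifs as written here, and broader forms of these motifs were not searched. The Tlr2 window holds gggaattccc, which is close to the NF-κB form searched but does not match it, so the Tlr2 window is not read as lacking such a site. Tlr4, Tlr7, Cd14 and Ly96 had no promoter in this set. These matches are descriptions of sequence and were not linked to binding by any measurement here.

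The share of cells in which a gene was seen was compared as a second measure, with and without a fixed depth per cell. Myd88 had at least 1 UMI in 61.5% ± 2.23 of the cells of old and 48.4% ± 2.59 of those of young females, without overlap (59.6 to 65.3% against 44.0 to 50.6%). Across all genes, however, 89.7% had a higher share in old females and 89.9% in old males. When every cell was thinned to 2000 UMIs, these shares were 48.6% and 51.5%. On thinned cells Myd88 was seen in 15.7% ± 1.71 of old and 12.6% ± 1.11 of young female cells (two-sided exact permutation test, p = 0.0159, adjusted p = 0.37) and in 15.0% ± 4.80 of old and 9.50% ± 2.59 of young male cells (exact permutation p = 0.0556).

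Unthinned, the exact permutation p for Myd88 in females was 0.0079, the smallest that 5 mice against 5 allow, with an adjusted p of 0.0522. Tlr13 had the same p unthinned (34.8% ± 3.81 against 29.0% ± 1.95), but its thinned shares were 8.33% ± 1.83 and 8.30% ± 0.973 (exact permutation p = 0.968). Nlrp3 had unthinned shares of 22.5% at both ages and thinned shares of 3.74% ± 1.23 in old and 5.55% ± 0.816 in young females (exact permutation p = 0.0238, adjusted p = 0.399). For Cd14 the unthinned difference of 6.46 percentage points (exact permutation p = 0.0317) was 1.33 points after thinning (p = 0.143, exact permutation). No gene in the whole table passed the adjusted threshold in either sex, thinned or not (0 genes). With cells taken by a leading hashtag of at least 80% of hashtag counts, unthinned, Myd88 (13.6 points) and Tlr13 (6.38 points) passed in females (exact permutation, adjusted p = 0.0395 for both). The share of all genes that passed with those cells was not counted, so these calls are not read as particular to Myd88 and Tlr13. With the cells used otherwise, the unadjusted p was below 0.05 for 39.6% of female and 24.5% of male genes unthinned, and for 9.71% and 7.21% thinned.

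Monocytes of bone marrow are not uniform, and the 9 genes were spread unevenly over them. Cells were clustered without the 9 genes and the other genes of the pathway, and 8 clusters of monocytes were named "-like" from marker genes. These were mature Ly6C-high-like cells (cluster 0, 2322 cells), Apoe-high-like cells (cluster 2, 1057), cells with class II antigen presentation genes (DCMo-like, cluster 4, 704), neutrophil-like cells with primary granule genes (NeuMo-like, cluster 5, 644), interferon-stimulated-like cells (cluster 7, 151) and cycling cells (clusters 1 and 6, G2/M-like, 1393 and 508 cells, and cluster 3, S-like, 921). The NeuMo-like cluster also had 8 S-phase markers raised over the other cells, the same count as the S-like cluster. Cluster 6 had 4 G2/M markers raised, against 8 in cluster 1. The Apoe-high-like cluster also had 6 mature Ly6C-high markers raised. The DCMo-like and interferon-stimulated-like clusters each had 5 Apoe-high markers raised. The remaining clusters were small. Cluster 8 (117 cells, female) was led by the pituitary hormone genes Pomc, Gh and Prl and stayed unnamed, and cluster 9 (51 cells) was led by T cell genes such as Cd3g and also by the basophil gene Mcpt8. Its 36 female cells are called T or NK-like, and its 15 male cells are left unnamed, since basophil markers in males were at 4.53 to 9.15 log2 CPM per mouse and T or NK markers at most at 4.19. Levels in clusters are given with no test between them, and their intervals cover counting error only.

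In females Tlr7 was at 47.0 CPM in the Apoe-high-like cluster (95% exact Poisson interval 41.8 to 52.7), 40.4 CPM in the interferon-stimulated-like and 30.9 CPM in the DCMo-like cluster, and at 0.289 CPM (0.0786 to 0.739, 4 UMIs) in the NeuMo-like cluster. The NeuMo-like cells were the most deeply sampled, with a median of 24256 UMIs in females against 6855.5 in the Apoe-high-like cells, yet a Tlr7 UMI was seen in 0.712% of the former and 26.6% of the latter. As a comparison with cells that should lack Tlr7, the T or NK-like cells of females (36 cells, median 11494.5 UMIs) showed a Tlr7 UMI in 8.33%, and the 15 male cells of cluster 9 (median 1599 UMIs) had 0 UMIs of all 9 genes. The share in NeuMo-like cells was below that of the female T or NK-like cells and is not read as expression. The female comparison cells passed the same monocyte sort, and whether they carried monocyte RNA was not tested. In the same female cells Tlr2 was seen in 38.9%, Tlr13 in 36.1% and Myd88 in 50%, close to or above their shares in several monocyte clusters. These cells were chosen as a comparison for Tlr7 only, and whether they express Tlr2, Tlr13 or Myd88 themselves was not tested. They set no background for these genes, and shares of cells are not read as expression for them. Males had 35.9 CPM of Tlr7 in the Apoe-high-like cluster, 1.09 CPM (1 UMI) in the NeuMo-like cluster and 0 UMIs in the 33 interferon-stimulated-like cells.

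Tlr13 was at 74.9 CPM in the Apoe-high-like cluster of females and 4.04 CPM in the NeuMo-like cluster. Tlr2 was at 83.4 CPM in the mature Ly6C-high-like cluster (79.0 to 88.1) and 80.9 CPM in the Apoe-high-like one (74.0 to 88.2), which did not differ beyond counting error, and at 12.3 CPM in the NeuMo-like cluster. In NeuMo-like cells the shares with a UMI, 8.9% for Tlr13 and 25.6% for Tlr2, were below the 36.1% and 38.9% of the T or NK-like cells. These shares are read neither as background nor as expression, and no fold is given. In males the lowest Tlr2 level was in the S-like cluster (12 CPM, interval 6.99 to 19.2), close to the 16.3 CPM of the NeuMo-like cluster.

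Over the 8 clusters of females, Cd14 ranged 3.88-fold (14.4 to 55.9 CPM), Ly96 3.98-fold (13.2 to 52.5 CPM), Nlrp3 4.26-fold (8.51 to 36.2 CPM) and Tlr4 3.02-fold (4.47 to 13.5 CPM). In all of these except Cd14, which was at 14.4 CPM in the cycling cluster 1 and 14.7 CPM in the NeuMo-like cluster, the NeuMo-like cluster was lowest. Myd88 ranged 3.35-fold, and it was highest in the interferon-stimulated-like cluster in both sexes, at 141 CPM in females (118 to 167) and 122 CPM in males (69.6 to 198). Next were the cycling cluster 6 in females at 116 CPM (106 to 127) and the DCMo-like cluster in males at 82.4 CPM. The female intervals overlap, and the male interval encloses 82.4 CPM. Tlr4 was also highest in the interferon-stimulated-like cluster in males (22.8 CPM). In females its 13.47 CPM there was just below the 13.53 CPM of the DCMo-like cluster. In the NeuMo-like cluster Myd88 was at 42.1 CPM in females and 41.3 CPM in males. All levels here are CPM over the cells of a cluster, and so relative to all UMIs of those cells. NeuMo-like cells of females held a median of 24256 UMIs, against 6855.5 in Apoe-high-like, 8312.5 in DCMo-like and 7701 in interferon-stimulated-like cells. For the genes of this paragraph, Myd88 included, a lower CPM in NeuMo-like cells is therefore not read as fewer molecules per cell.

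**Figure D3:**
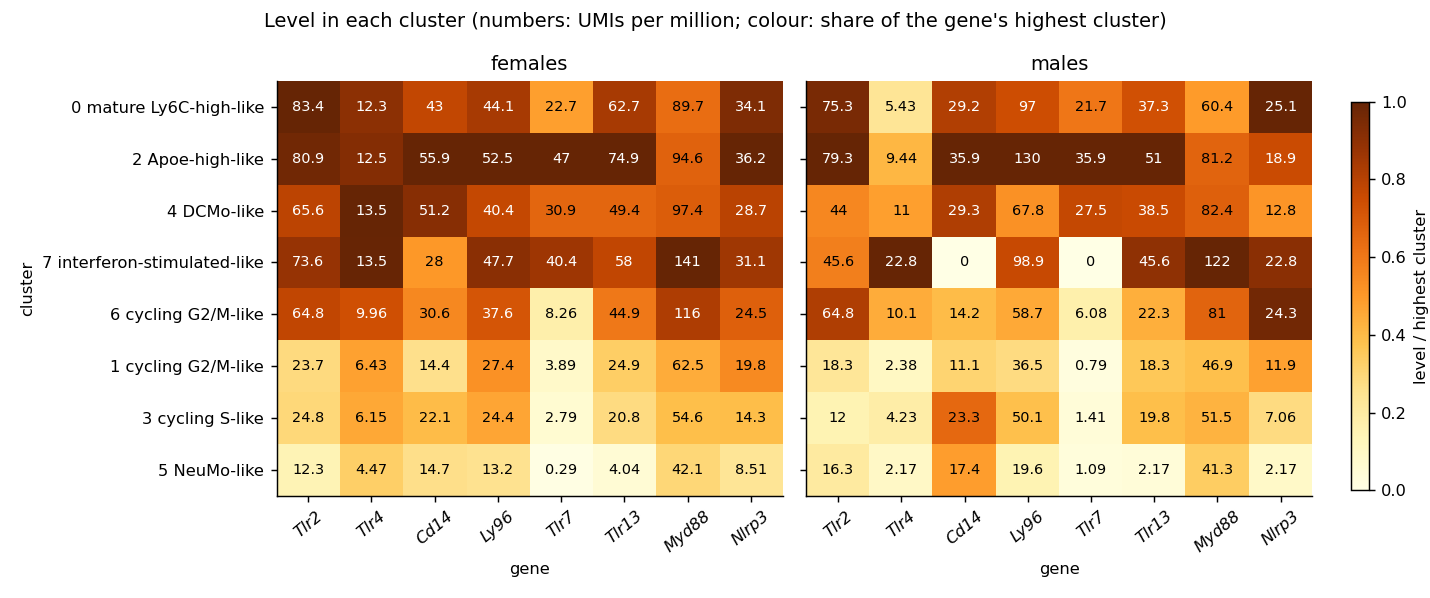
Level of 8 genes in 8 clusters, in CPM (numbers), with colour giving each level relative to the gene's highest cluster in that sex, for females (left) and males (right). Rows run from the non-cycling to the cycling and NeuMo-like clusters. In females the bottom row (NeuMo-like) is palest for Tlr7 and Tlr13, in males Tlr7 is at 0 in the interferon-stimulated-like row, and Myd88 peaks in the interferon-stimulated-like row in both sexes. Tlr9 is left out for its 49 female UMIs, and the male interferon-stimulated-like row rests on 33 cells.

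Genes with the most similar profile over clusters were found by Pearson correlation of log2(CPM + 1) over 19 cluster and sex points, and the 3 closest are named for each gene as a description, since points share libraries and depth. For Myd88 these were Mbnl2, Scarb2 and Nmi, the last an interferon-induced protein (r of 0.992, 0.985 and 0.984). For Tlr7 they were the surface receptor Tlr6 (0.929), Zfyve9 and Tbc1d9, and for Tlr13 they were Hmox1, the haem-degrading enzyme (0.982), Lsp1 and Plbd1. Cd14 was closest to Slc25a36, D230025D16Rik and Ticam2, the adaptor that Tlr4 uses from endosomes (0.963). Ly96 was closest to Cd302 (0.974), Adam9 and Dusp22, Tlr2 to Mocs1 (0.963), Birc3 and Fgd4, Tlr4 to C130050O18Rik (0.93), Lrch1 and Tsga10, and Nlrp3 to Rasgrp4 (0.962), Tmem127 and Cacfd1. Over the 16 points of the 8 monocyte clusters alone the r of these pairs was lower for all but Tlr7 with Tbc1d9, and lay between 0.79 (Tlr4 with Tsga10) and 0.976 (Tlr13 with Lsp1).

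Clusters differed in size between the ages, which bears on any average over cells. The DCMo-like cluster held 7.55 to 40.7% of the cells of old and 3.47 to 4.77% of those of young females, and the mature Ly6C-high-like cluster 4.08 to 27.7% of the cells of old and 30.5 to 42.9% of those of young males. Age was therefore also tested within clusters, over mice with at least 10 cells of a cluster and at least 3 such mice of each age. Among females, 7 clusters could be tested, with 44 tests of the 9 genes, of which 2 passed the threshold adjusted within the cluster. The share of all genes called was 2.16% in cluster 2, 1.32% in cluster 3, 0.932% in cluster 4, 0.381% in cluster 5 and 1.36% in cluster 6, where none of the 9 passed (0 calls).

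The first call was Myd88 in the mature Ly6C-high-like cluster, where old females had 103 ± 11.9 CPM and young females 75.5 ± 12.3 CPM (log2 fold change 0.38 ± 0.09 SE; edgeR, adjusted p = 0.012), beside 5.29% of the genes tested in that cluster. Myd88 had a positive log2 fold change in all 7 clusters, from 0.03 in the DCMo-like to 0.41 in the cycling cluster 6. In the NeuMo-like cluster old females had 45.7 to 49.6 CPM and young females 35.1 to 39.9 CPM (log2 fold change 0.37, edgeR adjusted p = 0.284). The share of all genes whose ages did not overlap was not counted within clusters, so this gap is not read as particular to Myd88. In the DCMo-like cluster old females had 95.2 ± 31.8 and young females 105 ± 34.1 CPM, and whether the age effect differs between clusters was not tested. In females without the NeuMo-like and cycling clusters, Myd88 kept a log2 fold change of 0.32 (edgeR, adjusted p = 0.00431).

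**Figure D4:**
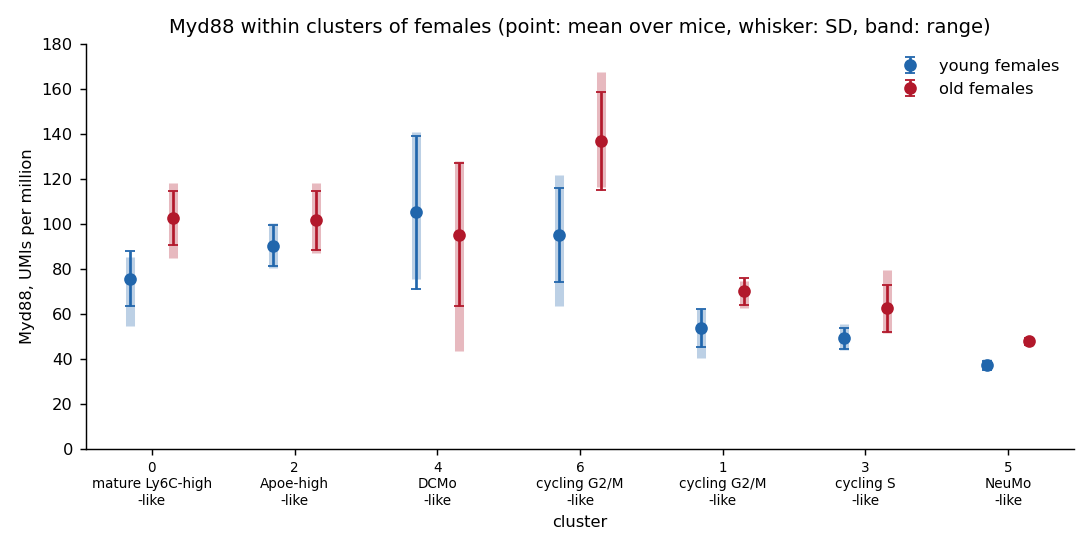
Myd88 in CPM (vertical axis, from 0) within the 7 clusters of females that could be tested, for young (blue) and old (red) mice. Points are means over mice, whiskers are SDs and pale bands run from the lowest to the highest mouse. The old mean is above the young mean in 6 clusters, and in the DCMo-like cluster it is 95.2 against 105.

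The second call was Tlr2 in the cycling cluster 1, at 27.3 ± 1.11 CPM in old and 19.0 ± 1.63 CPM in young females (log2 fold change 0.48 ± 0.12 SE; edgeR, adjusted p = 0.0284), beside 1.96% of genes there. This call was lost with DESeq2 (log2 fold change 0.49, adjusted p = 0.164), with the mouse number as a block (0.49, edgeR adjusted p = 0.0593) and without any 1 of 7 mice. Mouse numbers name different animals at each age, so the block is not a pairing. In the other 6 clusters the log2 fold change of Tlr2 lay between -0.05 and 0.26. Cd14 and Tlr13 were positive in all 6 clusters in which each was tested, up to 1.07 and 0.62 in the DCMo-like cluster, without passing the adjusted threshold (edgeR, adjusted p = 0.136 and 0.341). In males 1 cluster, the mature Ly6C-high-like one, had enough counts for 3 of the genes over 3 old and 5 young mice, and in it Tlr2 was at 104 ± 16.4 CPM in old and 54.7 ± 22.6 CPM in young mice (edgeR, adjusted p = 0.477), beside 0.133% of genes called there. In clusters 1 and 3 of males, where 0.294% and 0.235% of genes were called, none of the 9 had enough counts (0 tests).

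Of 74 other genes of the pathway, 67 could be tested in females, and 7 were higher and 2 lower in old females, beside 2.03% and 1.4% of all genes. Their median log2 fold change was 0.11. In males 44 were tested and none was called (0 of 44), with a median of -0.03.

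The 4 inflammasome genes called, of 15 tested, were all higher in old females. Pycard, the adaptor that links Nlrp3 to caspase-1, was at 569 CPM in old (525 to 600) and 484 CPM in young females (476 to 490), with a log2 fold change of 0.24 (edgeR, adjusted p = 0.00251). Mefv, which encodes the sensor pyrin, was at 39.5 to 43.5 CPM in old and 29.0 to 35.2 CPM in young females (log2 fold change 0.36; edgeR, adjusted p = 0.00298). Casp4, the sensor of lipopolysaccharide in the cytosol, had a log2 fold change of 0.50 (edgeR, adjusted p = 0.0165). Il1b, the cytokine that inflammasomes mature, had one of 1.24, but from 4.12 against 1.67 CPM (edgeR, adjusted p = 0.032).

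Among receptors outside the Toll-like family, Clec4e, which recognises mycobacterial glycolipid and dead cells, was at 24.3 to 40.2 CPM in old and 16.7 to 24.0 CPM in young females (log2 fold change 0.66; edgeR, adjusted p = 0.00697). Tmem173, which encodes the DNA-sensing adaptor STING, had a log2 fold change of 0.21 (edgeR, adjusted p = 0.0402). Of the 8 tested genes of this group, these 2 were called. Of the genes that fold and move endosomal receptors, Hsp90b1, the chaperone gp96, was higher (0.28; edgeR, adjusted p = 0.0291), whereas Slc15a4, an endolysosomal transporter needed for Tlr7 and Tlr9 signalling, was lower (-0.31; edgeR, adjusted p = 0.0256). Cd180, a Tlr4-like protein that restrains Tlr4 signalling, was also lower (30.0 to 43.3 CPM in old and 44.5 to 56.4 CPM in young females; -0.40; edgeR, adjusted p = 0.0174). No adaptor, kinase or transcription factor of the list was called (0 of 14 and 0 of 14).

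**Figure D5:**
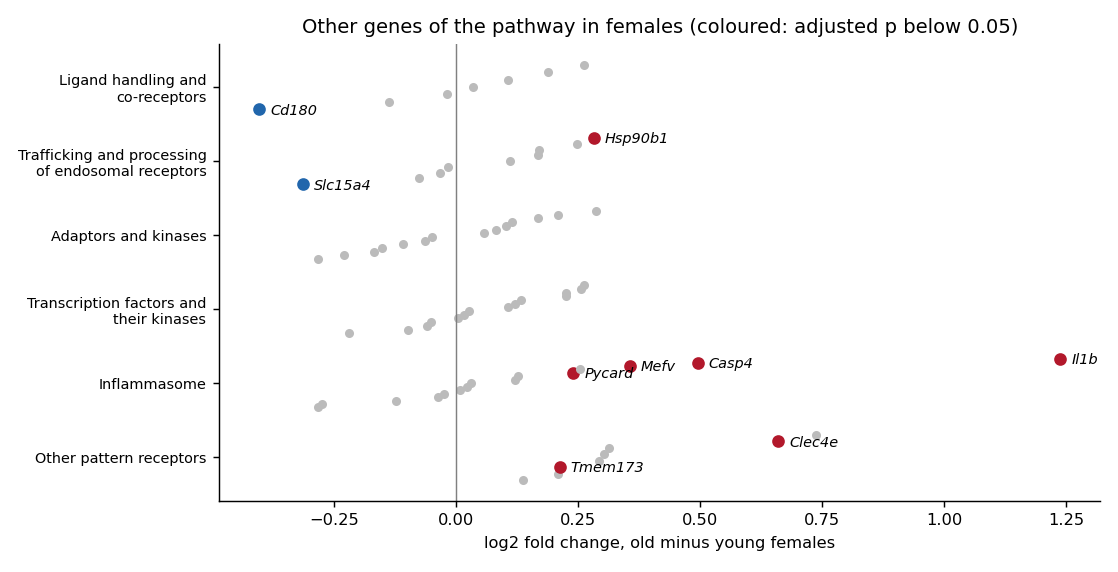
Log2 fold change, old minus young females (horizontal axis), of the 67 tested genes of the pathway list, by role. Red and blue points are genes past the adjusted threshold, 7 higher and 2 lower in old females, and grey points are the others.

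The calls of this list differed in how far they rested on single mice. Pycard, Mefv and Clec4e passed without any 1 of the 10 females, as Myd88 did. Casp4 and Cd180 passed in 8 of the 10 such fits, Slc15a4 in 5, Hsp90b1 in 4, and Il1b and Tmem173 in 3. In cells thinned to 2000 UMIs, Mefv, Tmem173, Slc15a4, Hsp90b1 and Cd180 were no longer called (edgeR, adjusted p = 0.395, 0.58, 0.29, 0.0755 and 0.0537), with log2 fold changes of 0.29, 0.17, -0.36, 0.29 and -0.45 beside 0.36, 0.21, -0.31, 0.28 and -0.40 in all UMIs, and Il1b had too few UMIs to test, while Pycard, Casp4 and Clec4e stayed past the threshold (adjusted p = 0.0334, 0.0254 and 0.0398). Tmem173 was also not called with the mouse number as a block (0.0689), with the leading hashtag at 80% or more (0.0537) or without the NeuMo-like and cycling clusters (0.0771), and Slc15a4 not without those clusters (0.0753; edgeR adjusted p in each case). In males 2 of the 44 tested genes had an unadjusted p below 0.05, beside 10.9% of all male genes. The log2 fold changes of these, Mefv and Nfkb2, a subunit of NF-κB named after its values were seen, were 0.66 and 0.71 with unadjusted p of 0.016 and 0.0258 (edgeR; adjusted p = 0.324 and 0.374).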

How the data were processed

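The authors aligned reads with STAR 2.5.1 to mm10 and counted them with Cell Ranger 4.0.0, per the methods (the file headers name other Cell Ranger versions, which differ between the libraries), and deposited UMI counts per gene and hashtag counts per cell. Female cells were HTODemux singlets with over 200 genes and under 5% mitochondrial counts. Male barcodes were each given to the leading hashtag. Counts were summed per mouse and tested, old against young within a sex, with edgeR 4.0.16 (TMM, filterByExpr, quasi-likelihood, Benjamini-Hochberg) in R 4.3.3, with a sex by age interaction over 20 mice. DESeq2 1.42.0 was an alternative. Shares of cells were tested by exact permutation over 252 assignments, also after thinning to 2000 UMIs. Cells were clustered with Seurat 5.3.0 and sctransform 0.4.2 on 3000 features less 43 (the 9 genes, the pathway list), with 20 components and resolution 0.3, and no doublet caller beyond the hashtags was run. The count test was tested on simulated data.

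Poisson intervals and limits from a count of 0 cover counting error only, whereas the intervals of log2 fold changes and p-values carry the spread between mice. Named were the 9 genes, every called gene of the pathway list, and for each gene seen in at least 5% of female cells the 3 with the most similar profile. The members and lists were chosen with earlier results of these data known. Alternatives were other size factors, filters, cell selections, a mouse number block and leaving out each mouse.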

Additional observations from a re-analysis of the deposited data

Results flagged for a closer look

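Of 36 groups of 5 mice (9 genes, both sexes and ages), 1 had a mouse whose gap to the nearest other exceeded Dixon's critical value of 0.71 of the range, and chance gives about 1 in 20. This was Tlr9 in old male 2, at 1.52 CPM from 1 UMI, with the other old males at 0.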

How the results depend on the processing

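Myd88 in females kept its direction and call under all 10 alternatives (log2 fold change 0.30 to 0.35) and without each mouse (0.30 to 0.36). The count of male genes called was 22 with DESeq2, 95 with no filter on low counts, 1 with the mouse number as a replicate block, 28 without the NeuMo-like and cycling clusters and 0 to 39 without 1 mouse (39 without old male 1 and 24 without old male 4). The number of genes called by age in females, 345, was 158 in thinned cells and 194 to 522 without 1 mouse, with 522 without old female 4, 194 without young female 2, and 214, 216 and 215 without young females 1, 4 and 5. Pathway genes lower in old females numbered 4 with DESeq2, with no filter and with the leading hashtag at 80% or more, and 1 in thinned cells, where 3 were higher. Without 1 mouse 3 to 7 were higher and 0 to 3 lower. Mouse numbers name different animals, so calls lost or kept under the block are not read as a check of pairing. The block ended the calls of Tmem173 (adjusted p = 0.0689) and of Tlr2 in cluster 1 (0.0593, edgeR) and no other call named here.

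Several small effects that passed no test turned sign, and the cause was not tested. With HTODemux singlets, Tlr2 in males had a log2 fold change of 0.0491, the shares of male cells differed by 1.86 (Tlr2) and 0.355 points (Tlr13), and the interaction was -0.0179 (Tlr2), 1.06 (Tlr4), -0.075 (Cd14) and -0.12 (Nlrp3). With the leading hashtag at 80% or more, female Tlr2 was at -0.0111, the Nlrp3 share at 0.0396 points, and the interaction at -0.0184 (Ly96) and -0.0479 (Nlrp3). Without a mitochondrial limit female Tlr7 was at 0.0248. In thinned cells females had -0.17 (Tlr2) and 0.0612 (Tlr7), share differences were -1.25 (Tlr2), -0.299 (Tlr7) and -0.606 points (Ly96) in females and -1.82 points (Ly96) in males, and the interaction was -0.0128 (Tlr2), -0.0351 (Tlr13), -0.0893 (Cd14), -0.0226 (Ly96) and -0.43 (Nlrp3). Without the NeuMo-like and cycling clusters Tlr2 was at 0.29 and Tlr13 at 0.33 in males (Tlr2 share 8.48 points), Tlr2 at -0.0544 and Tlr7 at 0.0707 in females (Ly96 share -0.763 points), and the interaction at -0.33 (Tlr2), -0.20 (Tlr13), -0.17 (Cd14), -0.13 (Ly96) and -0.27 (Nlrp3). The female Nlrp3 share differed by 0.0331 points without clusters of other cell types and by 0.111 points without cluster 8, an alternative chosen after seeing the data.

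Without 1 mouse, log2 fold changes ranged from -0.29 to 0.11 (Tlr13, males), -0.0442 to 0.36 (Cd14, males), -0.0194 to 0.0894 (Tlr2, females) and -0.20 to 0.0809 (Tlr7, females). Share differences ranged from -2.81 to 0.0713 (Tlr2, males), -1.16 to 0.617 (Tlr13, males), -0.026 to 1.43 (Tlr7, females) and -0.574 to 0.88 points (Nlrp3, females). The interaction ranged from -0.0996 to 0.34 (Cd14), -0.0697 to 0.12 (Ly96), -0.21 to 0.0023 (Myd88), -0.11 to 0.27 (Nlrp3), -0.57 to 0.31 (Tlr4) and -0.033 to 0.33 (Tlr7). In males, with 1227 cells, 4 of the 9 genes had too few UMIs to test.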
